A study of Homo sapiens with 6 samples.

Results

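Wnt proteins are secreted lipid-modified ligands that bind frizzled receptors together with LRP5 or LRP6, and the signal stabilizes beta-catenin, which then works with TCF and LEF factors in the nucleus. Secreted antagonists of the DKK, SFRP and WIF families block the ligands or the co-receptors, whereas R-spondins raise the amount of receptor at the cell surface. In the breast, Wnt signals act in the outgrowth of the ducts and in the maintenance of basal and progenitor cells, and WNT4 acts downstream of progesterone. Described here are the genes of this system on the array, namely every gene named as a WNT ligand or a numbered FZD receptor together with a list of co-receptors, antagonists, R-spondins, AXIN genes, TCF and LEF factors and PORCN. They came to 52 of the 25940 genes of the array, with 67 probes.

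RNA was profiled from pLUM and pLB, a luminal and a luminobasal line from xenografts of T47Dco, a subline of the T47D human breast cancer cell line, in ovariectomized immunodeficient NSG mice. pLUM came from a tumor grown with estradiol (E), was sorted as CLD3+ CD49f- by the claudin CLD3 and the integrin CD49f, and was given 1 nM E for 72 h before the arrays. pLB came from a tumor grown with E plus progesterone, was sorted as CLD3- CD49f+ and was kept with E withdrawn (EWD). Each line stems from 1 tumor, both were kept in charcoal-stripped serum, and cells of both were fixed, stained for cytokeratin 5 (CK5) and sorted again before RNA was extracted from triplicate sorts, so that 3 arrays of each line were compared. Line and hormone coincide and cannot be told apart, and since the arrays of a line come from sorts of 1 culture line, p-values measure a spread that may be technical.

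All signals below are on the log2 scale, with the 75th percentile of each array set to 0, and each unit is a 2-fold step. The 75th percentile itself was an intensity of 449 to 869, and 21285 to 22775 probes per array were well above background by the flag of the scanner software. A probe was tested with limma if it was well above background on at least 3 of the 6 arrays, and it was called if the lines differed at least 2-fold with a Benjamini-Hochberg adjusted p under 0.05 over all 23105 tested probes. Each gene is represented by 1 probe, the tested one whose mean across the 6 arrays was highest. Arrays correlated across probes at 0.972 to 0.991 within a line and at 0.780 to 0.806 between lines, and having only 3 arrays a line limits the precision. By representative probe, all 7 luminobasal markers, KRT5, KRT14, TP63, ITGA6, EGFR, CDH3 and SNAI2, were called higher in pLB. Of 8 luminal markers, 7 were called lower, with KRT18 not called. ITGA6 encodes CD49f, CLDN3 encodes CLD3 and KRT5 encodes CK5, all used for sorting, so these genes are no independent check of the lines. Of the dimmer KRT8 probes, the 1 at 1.89 was called higher and the other, at -2.57, lower.

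Of the 52 genes, 38 could be tested, and 27 were called higher in pLB, 4 were called lower and 7 were not called. The other 14 genes had no testable probe, and 10 of them were well above background on no array. Across all 17670 tested genes, 22.7% were called higher and 23.0% were called lower. The median difference was 1.93 on the log2 scale over the 38 genes (1.82 with dim genes at their bounds), against 0.04 over all tested genes. By probe, 46 of 67 were tested, of which 32 were called higher, where 21.9% of all tested probes were, and 4 were called lower, where 23.7% were. The arrays of the lines did not overlap for any of the 31 called genes, and this held for 69.1% of all tested genes. Since a gene that is dim in 1 line enters the test only through the other, the 23 genes that were well above background on all 6 arrays are given separately. Of these, 15 were called higher, where 20.6% of all such genes were, and 2 were called lower, where 20.5% were. Fewer cells of a kind and less RNA per cell cannot be told apart in such bulk RNA.

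The array reads each gene through 60-base probes, and examples that read through coding sequence are shown for 6 members. They say which part of the message was measured. The places within coding sequences and proteins named below were not computed, since no transcript or protein sequences were at hand. Positions are those of the array files on hg19, and each sequence is written 5′ to 3′ on the strand of the gene. The WNT7A probe spans the conserved stretch around the serine that PORCN acylates, whose codons are in capitals. The WNT7B probe lies nearer the end of its coding sequence, the FZD2 probe at the last membrane span, the LRP5 probe in the cytoplasmic tail, the DKK3 probe in a cysteine-rich part and the AXIN2 probe in the RGS domain that binds APC.
WNT7A, chr3:13860851-13860910, minus strand: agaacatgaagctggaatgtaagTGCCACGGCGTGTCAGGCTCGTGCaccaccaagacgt
WNT7B, chr22:46318943-46319002, minus strand: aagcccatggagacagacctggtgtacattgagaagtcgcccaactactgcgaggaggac
FZD2, chr17:42636610-42636669, plus strand: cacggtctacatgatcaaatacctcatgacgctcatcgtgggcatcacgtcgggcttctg
LRP5, chr11:68216359-68216418, plus strand: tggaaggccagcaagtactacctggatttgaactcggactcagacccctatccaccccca
DKK3, chr11:11986163-11986222, minus strand: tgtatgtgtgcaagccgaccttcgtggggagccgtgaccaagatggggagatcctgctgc
AXIN2, chr17:63554388-63554447, minus strand: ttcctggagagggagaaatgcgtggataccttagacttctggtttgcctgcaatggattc

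Of the ligands, 19 genes were on the array and 12 were tested. Of these, 8 (WNT5A, WNT6, WNT3A, WNT10A, WNT7A, WNT10B, WNT7B and WNT3) were called higher in pLB, WNT11 was called lower, and WNT4, WNT2B and WNT9B were not called. The shares over all tested genes were 22.7% higher and 23.0% lower. WNT5A and WNT7A were well above background on no pLUM array, so they entered the test only through pLB. WNT5A, the prototype of the ligands that signal without beta-catenin, was at -7.51, -7.76 and -7.75 in pLUM and 1.40, 0.95 and 1.19 in pLB. No pLUM array had it well above background, and every pLB array was bright. The fitted difference was 8.85 ± 0.18 (SE; adjusted p = 2.49e-07) on the log2 scale, and the bound is at least 94.3-fold higher in pLB. Such a bound sets the mean of the bright line against the lowest signal that counts as well above background on each array of the dim line, or against the probe itself where that is higher. It holds for the reported background treatment only, and fitted differences of dim genes were smaller with another one, given below.

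Among the ligands that were above background in both lines, WNT6, WNT3A and WNT10A, which act through beta-catenin, rose by the widest margins. WNT6 was at -4.66, -4.55 and -4.18 in pLUM and 3.01, 2.56 and 2.46 in pLB, a difference of 7.14 ± 0.22 (SE; adjusted p = 6.76e-07) or 141-fold. WNT3A, the ligand commonly used to switch on beta-catenin in culture, was at -3.42, -3.38 and -3.12 in pLUM and 2.25, 2.04 and 2.32 in pLB, a difference of 5.51 ± 0.17 (SE; adjusted p = 7.03e-07) or 45.5-fold. WNT10A was at -4.10, -4.32 and -4.28 in pLUM and 0.86, 0.80 and 0.84 in pLB, a difference of 5.07 ± 0.15 (SE; adjusted p = 6.43e-07) or 33.6-fold. For all 3 genes the gap between the lines far exceeded the spread within either. A second WNT3A probe, whose target lies upstream of the first in the same gene, was called too but differed by only 1.05 ± 0.27 (SE; adjusted p = 0.0122), at -3.18, -3.54 and -4.22 in pLUM and -2.64, -2.67 and -2.47 in pLB. The size of the WNT3A difference thus depends on the probe.

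The other ligands that were called higher did so by less. WNT10B, which holds back fat-cell formation, was at -2.02, -2.13 and -1.68 in pLUM and 1.31, 1.11 and 0.45 in pLB (difference 2.90 ± 0.26 SE, adjusted p = 7.34e-05). WNT7A was at -5.02, -6.96 and -6.70 in pLUM and -3.18, -3.25 and -3.43 in pLB (difference 2.94 ± 0.48 SE, adjusted p = 0.00137). Its probe, shown above, was well above background on no pLUM array, the pLUM arrays spread over the widest range of all 38 tested genes (SD 1.06 on the log2 scale), and the bound is at least 4.02-fold. WNT7B was at -4.80, -5.44 and -4.92 in pLUM and -2.998, -3.08 and -3.504 in pLB (difference 1.86 ± 0.24 SE, adjusted p = 0.000383), and its other probes were too dim to be tested. WNT3, the closest relative of WNT3A, was at -2.38, -1.63 and -2.21 in pLUM and -1.20, -1.004 and -0.39 in pLB (difference 1.21 ± 0.29 SE, adjusted p = 0.00796). Every pLB array was above every pLUM array for each of these 4 genes. The lines did not overlap for any called member, nor for 69.1% of all tested genes. The calls of WNT7A (0.18), WNT7B (0.16) and WNT3 (0.73) were lost with another background correction, normexp. That of WNT3 was also lost with slide as a block (0.88) and without pLB replicate 3 (0.97).

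WNT11, a ligand that acts mainly without beta-catenin, went the other way, at -3.35, -3.12 and -2.89 in pLUM and -3.93, -4.49 and -4.84 in pLB (difference -1.30 ± 0.26 SE, adjusted p = 0.00397), with 2 of 3 pLB arrays well above background. Its call was lost with normexp (-0.83), with slide as a block (-0.81) and with scaling on spike-in spots (-1.05). WNT9B was also lower on average, at -3.37, -3.73 and -2.16 in pLUM and -4.47, -4.33 and -3.57 in pLB, but the lines overlapped and it was not called (difference -1.04 ± 0.44 SE, adjusted p = 0.0727). WNT4, the progesterone-regulated ligand of the mammary gland, missed the 2-fold threshold by its representative probe, at -2.68, -2.66 and -2.57 in pLUM and -1.66, -1.71 and -1.72 in pLB (difference 0.94 ± 0.15 SE, adjusted p = 0.00109), whereas a dimmer probe for another stretch of the gene was called at 1.38 ± 0.17 (SE; adjusted p = 0.000301). WNT2B, at -5.04, -5.19 and -4.78 in pLUM and -4.60, -5.64 and -4.55 in pLB, differed by less than the spread between replicates (difference 0.07 ± 0.32 SE, adjusted p = 0.848). No probe could be tested for WNT1, WNT2, WNT5B, WNT8A, WNT8B, WNT9A and WNT16. Single arrays carried some signal for 3 of these, with a WNT1 probe well above background only on pLUM replicate 2, and WNT8B (-2.83) and WNT9A (-3.69) only on pLB replicate 3.

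**Figure D1:**
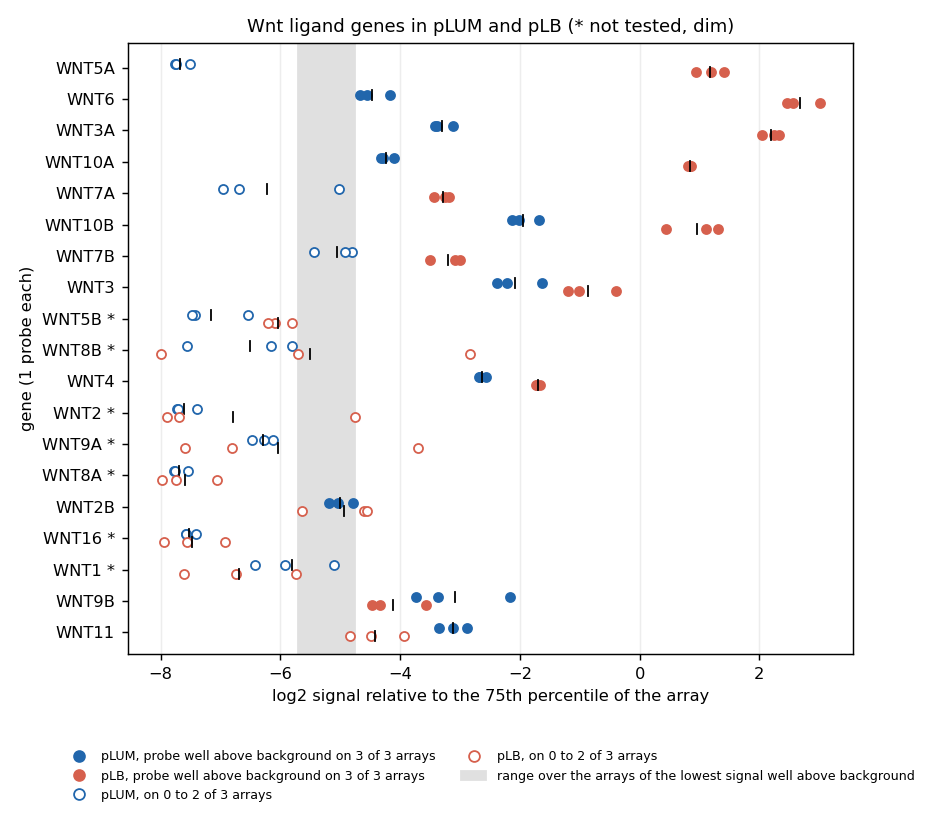
Signal of each of the 19 ligand genes on the 3 pLUM (blue) and 3 pLB (red) arrays, as log2 relative to the array's 75th percentile, with a black tick at the mean of the 3. Filled points mean that the probe was well above background on all 3 arrays of that line, the grey band spans the lowest signals of that kind, and pLB points of WNT5A, WNT6, WNT3A and WNT10A lie at 0.80 or higher while their pLUM points lie at -3.12 or lower.

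PORCN, the enzyme that attaches the lipid to Wnt ligands, was not called, at 1.502, 1.29 and 1.47 in pLUM and 1.72, 1.64 and 1.62 in pLB (difference 0.24 ± 0.15 SE, adjusted p = 0.209). Its signal was above the 75th percentile on every array. WLS, the carrier that takes acylated ligands to the cell surface and one of the pathway genes outside the 52, was called higher, at -5.46, -5.51 and -5.10 in pLUM and -1.03, -1.45 and -2.02 in pLB (difference 3.86 ± 0.27 SE, adjusted p = 2.32e-05).

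Several WNT genes lie beside each other in the genome. The WNT6 and WNT10A probes are 19.5 kb apart on chromosome 2, and both genes were called higher. The WNT3 and WNT9B probes are 111 kb apart on chromosome 17, with differences of 1.21 and -1.04 of which only the first was called. WNT3A has WNT9A at 139 kb on chromosome 1 and WNT10B has WNT1 at 15.7 kb on chromosome 12, and in both pairs the second gene could not be tested.

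The 250 bases before the start of WNT6, WNT10A, WNT3A and DKK1 are shown, the first 2 as the pair of neighbours that were higher together, WNT3A as the ligand whose probes disagreed in size, and DKK1 as a known beta-catenin target. They come from RefSeq on GRCh38.p14, which held such a window for 38 of the 52 genes (45 windows). Searched on both strands were CTTTGA, the core that TCF and LEF factors bind, TGANTCA, the AP-1 element, and CACCTG, an E-box that SNAI and ZEB repressors bind; capitals mark a match, and the first 2 motifs can share the letters TGA or TCA.
WNT6, chr2:218859555-218859804, plus strand: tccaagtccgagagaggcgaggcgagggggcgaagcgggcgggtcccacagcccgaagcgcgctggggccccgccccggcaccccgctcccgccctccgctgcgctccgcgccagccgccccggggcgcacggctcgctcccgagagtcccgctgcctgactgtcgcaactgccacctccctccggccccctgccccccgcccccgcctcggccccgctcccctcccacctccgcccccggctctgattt
WNT10A, chr2:218880602-218880851, plus strand: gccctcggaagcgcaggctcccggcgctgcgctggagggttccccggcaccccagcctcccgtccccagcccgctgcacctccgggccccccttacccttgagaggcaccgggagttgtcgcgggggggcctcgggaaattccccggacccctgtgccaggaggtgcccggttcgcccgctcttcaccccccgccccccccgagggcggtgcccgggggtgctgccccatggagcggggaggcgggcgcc
WNT3A, chr1:228006748-228006997, plus strand: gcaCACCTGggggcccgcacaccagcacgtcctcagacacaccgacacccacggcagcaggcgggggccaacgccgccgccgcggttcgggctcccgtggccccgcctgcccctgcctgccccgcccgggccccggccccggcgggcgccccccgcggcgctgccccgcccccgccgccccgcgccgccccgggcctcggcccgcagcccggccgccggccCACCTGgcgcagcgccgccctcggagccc
DKK1, chr10:52314031-52314280, plus strand: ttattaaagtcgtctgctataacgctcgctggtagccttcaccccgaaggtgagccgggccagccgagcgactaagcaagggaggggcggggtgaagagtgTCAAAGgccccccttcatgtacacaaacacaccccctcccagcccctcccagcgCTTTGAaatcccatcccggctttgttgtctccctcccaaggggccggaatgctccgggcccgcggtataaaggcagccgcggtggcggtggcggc

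DKK1 had 2 matches to CTTTGA, WNT3A had 2 to CACCTG, and WNT6 and WNT10A had none of the 3 motifs. CTTTGA was found in 2 of the 45 windows (4.44%), against 11.2% of 35116 windows of all genes. The other window was that of PORCN. TGANTCA was in 0 of 45, against 6.57% of all windows, and CACCTG was in 8 of 45 (17.8%), against 17.5%. The windows of the members were rich in CpG, with a median of 22 CpG and 69.2% G + C, against 11 and 58% over all windows.

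All 10 frizzled receptor genes could be tested and all 10 were called. In pLB 8 were higher and 2 lower, where 22.7% of all tested genes were called higher and 23.0% lower. FZD10, FZD8 and FZD6 were well above background on no pLUM array and on all pLB arrays, so they entered the test only through pLB. FZD10 was at -7.49, -7.76 and -7.75 in pLUM and 1.15, 1.11 and 0.78 in pLB, with a fitted difference of 8.68 ± 0.18 (SE; adjusted p = 2.49e-07) and a bound of at least 83.8-fold. FZD8 was at -7.30, -6.69 and -7.73 in pLUM and 1.90, 1.36 and 0.92 in pLB (difference 8.64 ± 0.34 SE, adjusted p = 1.71e-06; at least 109-fold). FZD6, a receptor known for hair and cell orientation through the planar polarity branch, was at -6.62, -6.53 and -7.60 in pLUM and -0.20, -0.29 and -0.51 in pLB (difference 6.59 ± 0.30 SE, adjusted p = 3.17e-06; at least 33-fold).

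The other 5 that rose were measurable in both lines. FZD1 was at -2.34, -2.23 and -1.81 in pLUM and 1.40, 1.42 and 0.95 in pLB (difference 3.38 ± 0.22 SE, adjusted p = 1.53e-05; 10.4-fold). FZD7, a receptor of stem and progenitor cells in several epithelia, was at -3.12, -3.23 and -3.03 in pLUM and 0.36, 0.18 and -0.30 in pLB (difference 3.21 ± 0.21 SE, adjusted p = 1.58e-05; 9.24-fold). The closely related FZD2, whose probe is shown above, was at -0.995, -1.15 and -0.62 in pLUM and 1.78, 1.45 and 0.79 in pLB (difference 2.26 ± 0.29 SE, adjusted p = 0.000374; 4.8-fold). FZD1, FZD2 and FZD7 form 1 subfamily by sequence, and the lines did not overlap for any of them, as for 69.1% of all tested genes. FZD5 was at -3.33, -3.06 and -2.74 in pLUM and -1.19, -0.70 and -1.496 in pLB (difference 1.92 ± 0.26 SE, adjusted p = 0.000525; 3.78-fold), and FZD9 was at -2.28, -2.90 and -1.88 in pLUM and -0.93, -0.72 and -0.44 in pLB (difference 1.66 ± 0.28 SE, adjusted p = 0.00172; 3.16-fold).

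FZD4, the receptor through which norrin also signals, fell in pLB, at 0.94, 1.12 and 0.999 in pLUM and -1.30, -1.56 and -1.46 in pLB (difference -2.46 ± 0.16 SE, adjusted p = 1.48e-05; 5.5-fold lower). FZD3, which like FZD6 is known for planar polarity, fell as well, at -0.60, -0.52 and -0.75 in pLUM and -2.25, -2.31 and -2.09 in pLB (difference -1.59 ± 0.16 SE, adjusted p = 0.000123; 3.02-fold lower). Both remained well above background on all pLB arrays.

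Of the co-receptors, LRP5 and ROR1 were called higher, where 22.7% of all tested genes were, and LRP6 and ROR2 were not called. ROR1 was well above background on no pLUM array, so it entered the test only through pLB. LRP5 was at -2.55, -2.66 and -2.32 in pLUM and -0.17, -0.10 and -0.01 in pLB (difference 2.42 ± 0.17 SE, adjusted p = 1.95e-05; 5.34-fold). Its partner LRP6 was at 1.14, 0.90 and 0.503 in pLUM and 0.33, 0.40 and 0.18 in pLB (difference -0.55 ± 0.21 SE, adjusted p = 0.0501), so that the pLB arrays lay below the pLUM arrays by less than 2-fold. ROR1, a receptor tyrosine kinase for WNT5A that is better known from fetal tissue and tumors, was at -7.34, -7.01 and -6.60 in pLUM and -3.70, -3.66 and -4.27 in pLB (difference 3.11 ± 0.26 SE, adjusted p = 5.12e-05; at least 2.83-fold). A second ROR1 probe was called in the same direction (difference 4.01 ± 0.16 SE, adjusted p = 1.85e-06; at least 3.72-fold), and another was too dim to be tested. With normexp the ROR1 difference was 0.08 and not called. The related ROR2 was at -1.75, -1.61 and -1.28 in pLUM and -2.26, -2.46 and -2.64 in pLB (difference -0.91 ± 0.20 SE, adjusted p = 0.00512), lower on every pLB array but within 2-fold.

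Of the 10 secreted antagonists, 4 could be tested. Of these, 3 were called higher and 1 lower, where 22.7% and 23.0% of all tested genes were. DKK3, WIF1 and DKK1 were well above background on all pLB arrays and on no pLUM array, and FRZB was the reverse. Each thus entered the test only through the line where it was bright, so the count of calls says little of antagonists as a group. DKK3, a divergent DKK protein, was at -7.38, -7.58 and -7.58 in pLUM and 0.03, -0.13 and -0.78 in pLB (difference 7.22 ± 0.24 SE, adjusted p = 8.84e-07; at least 34-fold). The DKK3 probe shown above, further upstream in the gene, was called with a smaller difference (difference 3.93 ± 0.30 SE, adjusted p = 3.32e-05; at least 4.83-fold). WIF1, which binds Wnt ligands directly, was at -7.07, -7.39 and -7.36 in pLUM and -0.77, -0.80 and -1.12 in pLB (difference 6.38 ± 0.18 SE, adjusted p = 5.76e-07; at least 22.3-fold). DKK1, which blocks LRP5 and LRP6, was at -6.34, -7.32 and -7.28 in pLUM and -1.22, -0.67 and -1.89 in pLB (difference 5.72 ± 0.38 SE, adjusted p = 1.77e-05; at least 17.4-fold). FRZB, a frizzled-related protein that traps ligands, was at -4.33, -4.95 and -4.32 in pLUM and -7.39, -6.74 and -6.65 in pLB (difference -2.40 ± 0.28 SE, adjusted p = 0.000238; at least 1.69-fold lower in pLB). DKK2, DKK4, SFRP1, SFRP2, SFRP4 and SFRP5 could not be tested, and of these only SFRP1 was well above background anywhere, on pLUM replicate 1 and pLB replicate 3.

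Of the R-spondins in the list, RSPO3 was called higher, at -5.94, -5.93 and -6.19 in pLUM and -5.34, -4.57 and -3.89 in pLB (difference 1.42 ± 0.35 SE, adjusted p = 0.0097; at least 1.72-fold). It was dim in pLUM and near the detection limit in pLB, and the call was lost with slide as a block, where the difference was 0.68. It turned to -0.25 with another background correction. RSPO1 was well above background on no array.

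**Figure D2:**
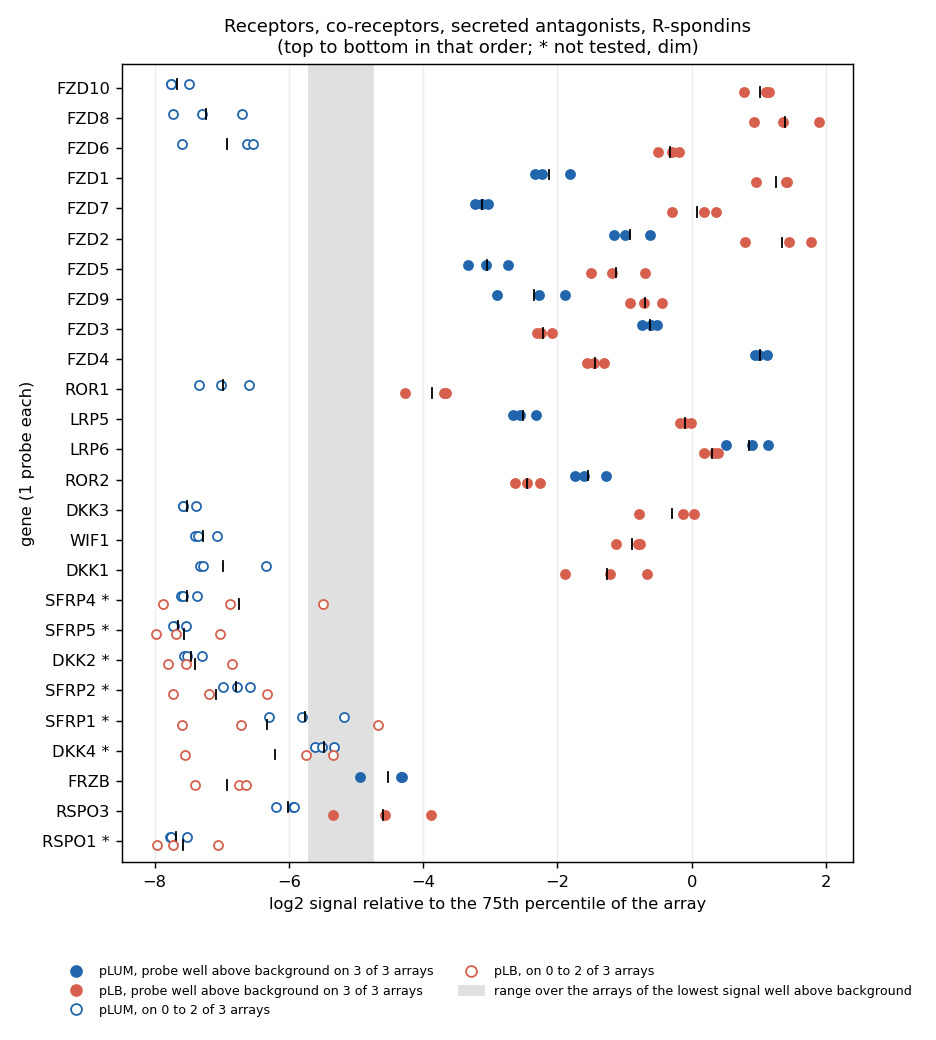
Signal of the receptor, co-receptor, antagonist and R-spondin genes on the 3 pLUM (blue) and 3 pLB (red) arrays, as log2 relative to the array's 75th percentile, with a black tick at each mean and filled points where the probe was well above background on all 3 arrays of the line. The pLUM points of FZD10, FZD8, FZD6, DKK3, WIF1 and DKK1 lie below the grey band of detection limits while the pLB points lie at -1.89 or higher, and FZD4, FZD3 and FRZB run the other way.

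Inside the cell, AXIN2, a scaffold of the complex that destroys beta-catenin and a widely used readout of the pathway, was at -7.47, -7.71 and -7.69 in pLUM and -4.67, -5.42 and -3.63 in pLB (difference 3.05 ± 0.42 SE, adjusted p = 0.000561; at least 1.75-fold). The pLB arrays had the widest spread in pLB of all 38 tested genes (SD 0.90 on the log2 scale), and a second AXIN2 probe, further downstream in the gene, was well above background on no array. With another background correction the AXIN2 difference was 0.07 and not called. AXIN1, its constitutive relative, was at -2.95, -2.38 and -1.82 in pLUM and -2.15, -1.83 and -1.99 in pLB and was not called (difference 0.40 ± 0.29 SE, adjusted p = 0.267).

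All 4 genes of TCF and LEF factors were called higher, where 22.7% of all tested genes were. Of the 4, only TCF7L1 kept its call with another background correction. TCF7L1, which acts mostly as a repressor, was at -1.38, -1.38 and -1.23 in pLUM and 0.497, 0.31 and 1.002 in pLB (difference 1.93 ± 0.21 SE, adjusted p = 0.0002). TCF7 was at -5.04, -5.40 and -5.03 in pLUM and -3.37, -3.54 and -3.25 in pLB (difference 1.77 ± 0.18 SE, adjusted p = 0.000135), close to the detection limit in pLUM, and its other probe was not called (difference 0.76 ± 0.27 SE, adjusted p = 0.0423). LEF1 was at -1.36, -1.64 and -2.14 in pLUM and -0.27, -0.66 and -0.47 in pLB (difference 1.24 ± 0.24 SE, adjusted p = 0.00296), and TCF7L2 was at -2.14, -2.64 and -2.66 in pLUM and -1.18, -1.01 and -0.44 in pLB (difference 1.61 ± 0.25 SE, adjusted p = 0.00116). The 4 TCF7L2 probes did not behave alike, since another one was called at 1.79, whereas the remaining 2 were not called at 0.57 and 0.75. These probes lie at positions from 114724321 to 114926037 of chromosome 10, and TCF7L2 is known for many splice forms.

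**Figure D3:**
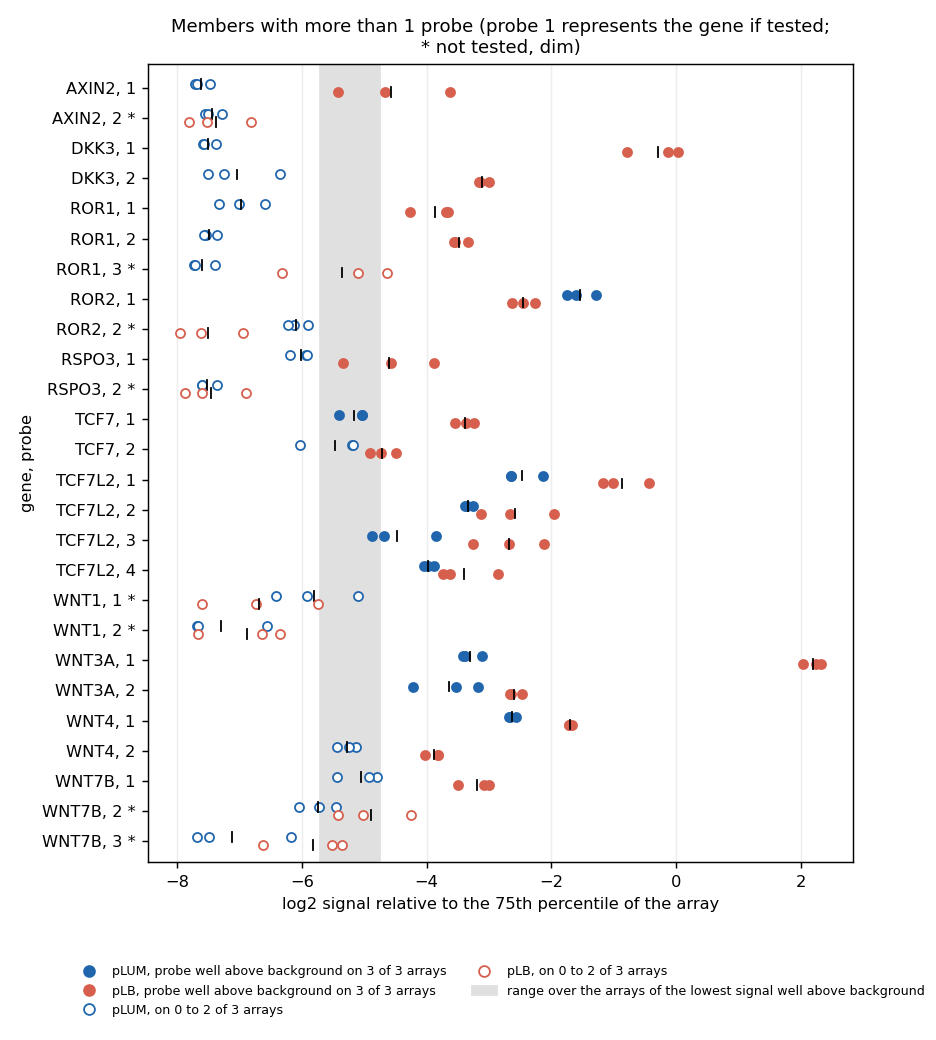
Signal of every probe of the 11 genes with more than 1 probe on the 3 pLUM (blue) and 3 pLB (red) arrays, as log2 relative to the array's 75th percentile, with filled points where the probe was well above background on all 3 arrays of the line. The distance between blue and red differs between probes of WNT3A (5.51 and 1.05), DKK3 (7.22 and 3.93) and TCF7L2 (0.57 to 1.79), and for AXIN2 and RSPO3 only the first probe was bright enough to be tested.

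Genes of the pathway outside the 52 were counted in lists by role. Of 17 tested genes that act at the cell surface or outside the cell, 10 were called higher and 1 lower, where 22.7% and 23.0% of all tested genes were. The largest fitted differences were those of SULF2 and SULF1, enzymes that trim heparan sulfate, and of the antagonists APCDD1 and SOSTDC1. SULF2 was at -2.76, -2.74 and -2.997 in pLUM and 5.63, 5.30 and 5.53 in pLB (difference 8.32 ± 0.17 SE, adjusted p = 2.49e-07; 319-fold), and SULF1 differed by 4.99 ± 0.19 (SE; adjusted p = 1.55e-06). APCDD1 and SOSTDC1 were well above background on no pLUM array, so they entered the test only through pLB, and were at least 39.5-fold and 7.56-fold higher in pLB. GPC4, a glypican that was above background in both lines, was 17.2-fold higher (difference 4.10 ± 0.24 SE, adjusted p = 8.9e-06), which exceeds the bound of SOSTDC1. TPBG, an inhibitor of LRP6, was the gene that fell (difference -1.58 ± 0.16 SE, adjusted p = 0.000144).

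Of 34 tested cytoplasmic and nuclear genes, 10 were called higher, 6 lower and 18 were not called, where 22.7% of all tested genes were called higher and 23.0% lower. Among the 34, 2 were well above background on no pLUM array and entered the test only through pLB. CTNNB1, the gene of beta-catenin, was at 2.74, 2.53 and 2.15 in pLUM and 3.12, 2.69 and 2.08 in pLB and was not called (difference 0.15 ± 0.30 SE, adjusted p = 0.67). The largest increases were those of TLE4, a corepressor (difference 3.98 ± 0.26 SE, adjusted p = 1.44e-05; at least 12.7-fold), the kinase gene TNIK (difference 2.13 ± 0.32 SE, adjusted p = 0.000966), and the feedback inhibitors NKD2 (difference 1.88 ± 0.18 SE, adjusted p = 9.8e-05) and DACT3 (difference 1.81 ± 0.18 SE, adjusted p = 0.000124). A dimmer NKD2 probe was called the other way (difference -1.51 ± 0.52 SE, adjusted p = 0.0382), so the direction of NKD2 depends on the probe. A further TLE4 probe was not called (-0.80), whereas the other tested TLE4 probes were called higher. The largest decreases were those of FRAT1, which binds GSK3 (difference -2.26 ± 0.17 SE, adjusted p = 3.19e-05), the corepressors TLE2 (difference -2.11 ± 0.18 SE, adjusted p = 5.77e-05) and TLE3 (difference -1.35 ± 0.25 SE, adjusted p = 0.00276), and PYGO1, a beta-catenin cofactor (difference -1.51 ± 0.21 SE, adjusted p = 0.00061). Another PYGO1 probe was not called (0.35).

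Of 11 planar polarity genes, 5 were called higher, 1 lower and 5 were not called, against the same 22.7% and 23.0% of all tested genes. Since 3 of the 11 were well above background on no pLUM array, they entered the test only through pLB, which raises the count of higher genes. PRICKLE1 was at -6.30, -7.53 and -6.28 in pLUM and 1.48, 1.40 and 1.99 in pLB (difference 8.33 ± 0.37 SE, adjusted p = 2.79e-06; at least 128-fold), and VANGL2, its partner at the membrane, was at -5.70, -7.66 and -7.64 in pLUM and 0.17, 0.13 and 0.44 in pLB (difference 7.25 ± 0.51 SE, adjusted p = 2.25e-05; at least 49.4-fold). DAAM2, which no pLUM array had well above background, was at least 7.57-fold higher (difference 3.51 ± 0.48 SE, adjusted p = 0.000558), and VANGL1 was higher too (difference 1.64 ± 0.15 SE, adjusted p = 7.26e-05). PRICKLE2 fell (difference -2.42 ± 0.23 SE, adjusted p = 9.34e-05).

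Of 16 tested genes known as beta-catenin targets, 10 were called higher, 1 lower and 5 were not called, where 22.7% and 23.0% of all tested genes were called higher and lower. Among the 16, 3 were well above background on no pLUM array and entered the test only through pLB. AXIN2, LEF1, TCF7 and DKK1 are among the 52 genes, and APCDD1, ZNRF3, RNF43 and NKD1 were already counted in the lists above, APCDD1 and ZNRF3 as called higher. EPHB2 was at -3.42, -3.54 and -3.85 in pLUM and -0.01, 0.22 and 0.64 in pLB (difference 3.89 ± 0.22 SE, adjusted p = 8.53e-06). MYC was at 0.33, 0.54 and 0.82 in pLUM and 3.25, 3.33 and 2.71 in pLB (difference 2.53 ± 0.23 SE, adjusted p = 7.39e-05), and SOX9 differed by 2.79 ± 0.22 (SE; adjusted p = 3.61e-05). CCND1 was at -3.87, -3.56 and -3.26 in pLUM and -2.04, -2.19 and -2.25 in pLB (difference 1.40 ± 0.20 SE, adjusted p = 0.000701), TNFRSF19 fell (difference -1.20 ± 0.32 SE, adjusted p = 0.0132), and ASCL2 and RNF43, at -0.56 and -0.23, were not called. LGR5, NOTUM, SP5 and MMP7 could not be tested. Most of these genes respond to other pathways too.

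**Figure D4:**
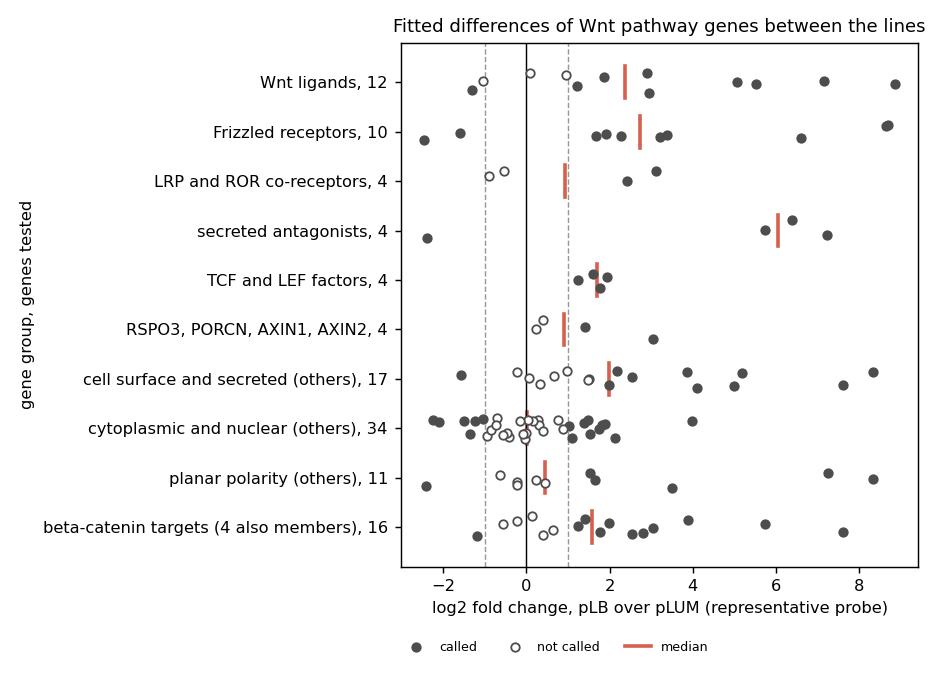
Fitted difference of each tested gene, as log2 of pLB over pLUM by the representative probe, in groups of the 52 genes (upper 6) and further lists of pathway genes (lower 4), with filled points for called genes, a red tick at the group's median and dashed lines at 2-fold. The lowest list, beta-catenin targets, repeats AXIN2, LEF1, TCF7 and DKK1 of the upper groups and APCDD1, ZNRF3, RNF43 and NKD1 of the lists above it. The medians are 2.38 for the ligands, 2.74 for the frizzled receptors and 6.05 for the 4 tested antagonists (1.93, 2.74 and 4.30 with dim genes at their bounds), and 0.01 for the cytoplasmic and nuclear genes.

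Markers of other cell types moved with the lines in part. Of 8 fibroblast markers, COL1A2 (difference 5.63 ± 0.19 SE, adjusted p = 9.34e-07; at least 11.5-fold) and THY1 (difference 5.95 ± 0.28 SE, adjusted p = 3.84e-06; at least 22.9-fold) were called higher in pLB and were well above background on no pLUM array, COL1A1 was not called (-0.56), and COL3A1, DCN, LUM, PDGFRB and FAP were well above background on no array. The summed signal of the list, as multiples of the 75th percentile, was 0.785 to 0.977 in pLUM and 1.27 to 1.81 in pLB. That of 4 endothelial markers was 0.0728 to 0.108 and 0.0937 to 0.207, with VWF called higher and 2 genes on no array, and that of 4 leukocyte markers was 0.414 to 0.508 and 0.329 to 0.438, with CD68 called higher. Their part in the differences of the Wnt genes was not tested. Slide 1 held all pLUM arrays together with pLB replicate 1 and slide 2 held pLB replicates 2 and 3, and with slide as a block, where the lines are compared through pLB replicate 1, 25 member genes were called higher and 3 lower, the calls of RSPO3, WNT3 (0.88) and WNT11 (-0.81) being lost.

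Another background correction changed more calls than any other alternative. With normexp on the raw spot and background intensities, and an offset of 50 then added, 18 member genes were called higher and 2 lower. The lowest signals well above background were then at -3.56 to -1.83 over the arrays, against -5.70 to -4.75 in the reported setting. How far the offset accounts for the smaller differences was not tested. WNT5A, FZD10, FZD8, FZD6, DKK3, WIF1 and DKK1 remained called there, with differences from 1.58 for DKK1 to 4.23 for FZD8. The bounds given above are 4.12 for DKK1 and 6.77 for FZD8 on the log2 scale, so they hold only for the reported setting. AXIN2 (0.07), ROR1 (0.08), TCF7 (0.14), WNT7A (0.18) and WNT7B (0.16) were no longer called. Nor were FRZB (-0.90), LEF1 (0.85), TCF7L2 (0.92), WNT3 (0.73), WNT11 (-0.83) and RSPO3. The directions of all 31 called genes were otherwise the same under every alternative, RSPO3 excepted.

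**Figure D5:**
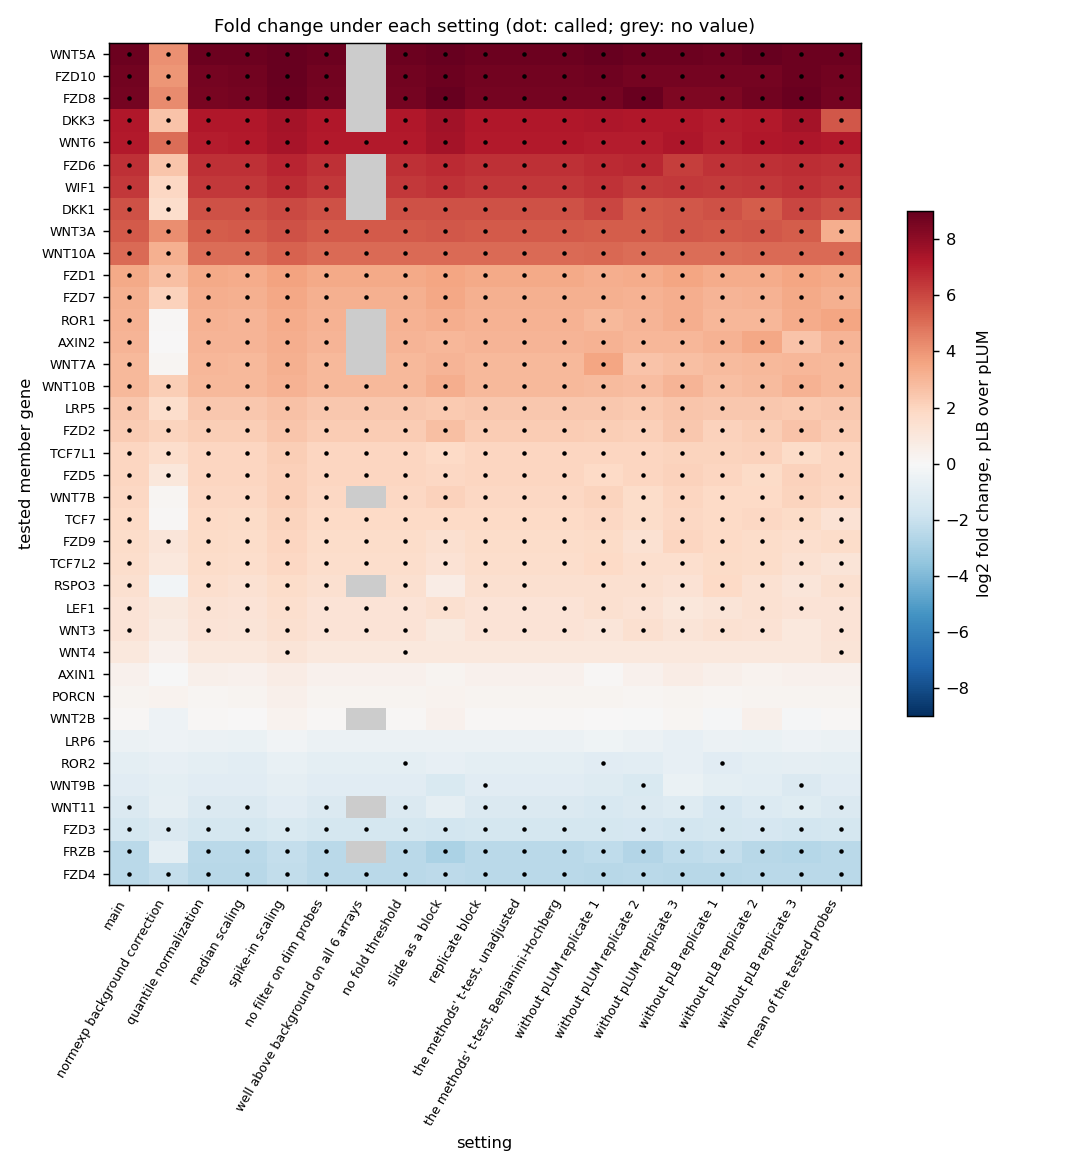
Fitted difference, as log2 of pLB over pLUM (colour), of the 38 tested genes (from top to bottom by size) under the reported setting, at the left, and under each alternative, with a dot where the gene was called and grey where the alternative left no value. The upper 10 genes keep their dot in every column that holds a value, while the second column, the other background correction, is paler and lacks dots for genes such as ROR1, AXIN2 and WNT7A.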

How the data were processed

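RNA of 3 pLUM and 3 pLB samples was measured on 1-colour Agilent arrays. What the authors deposited is scanner output (Agilent Feature Extraction 10.10.1.1), a linear intensity per spot with background subtracted and trends across the array removed, and without any scaling between arrays. Probe positions in these files are on hg19. Which CK5 fraction was hybridized is not given in the sources used here, and the T47Dco sample named in the methods was not analysed here.

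Spots of controls were dropped, as were those with an outlier flag, of which an array had 296 to 387. Then log2 intensities were taken relative to the 75th percentile of the array, and spots of a probe were averaged. The test was that of limma (version 3.58.1, R 4.3.3), using lmFit and eBayes, over 23105 of 34127 probes, of which 6 lacked 1 array. No member spot was saturated. On simulated arrays with the means and spread of these data, 148 of 200 changed probes among 23099 were recovered, with 4 false calls. In the data, 21.9% of tested probes were called higher and 23.7% lower, a far larger share than was changed there. These counts thus do not give the recovery or the false calls of the real comparison. An exact permutation test of 3 against 3 arrays cannot give a p below 0.1.

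The members and lists were chosen with earlier results of these data known. Of the 67 member probes, 64 matched a RefSeq identifier, all with the same symbol. By rule, full statistics go to called members and to AXIN2, LEF1, PORCN, LRP5 and LRP6, and values to at most 4 called genes each way of the other lists, by fitted difference. The tested members that were not called, and WLS, GPC4, CCND1, CTNNB1, ASCL2 and RNF43, were added after their values were seen. So were the further probes of NKD2, TLE4, PYGO1 and KRT8. Replicate numbers were not used as pairs. Alternatives were the background correction, scaling, filter, fold threshold, test, representative probe, slide and replicate blocks, and leaving out each array.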

Additional observations from a re-analysis of the deposited data

How the results depend on the processing

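Of the 38 tested genes, 22 kept their direction and their call under every alternative with a value, 14 gained or lost a call under at least 1, and 3 changed direction. With normexp, 18 probes were called higher and 2 lower, and 18 genes higher and 2 lower. Requiring a signal well above background on all 6 arrays left 17 probes higher and 2 lower, and 15 genes higher and 2 lower, since fewer genes were tested. Under normexp, AXIN1 turned to -0.0074, RSPO3 to -0.25 and WNT2B to -0.42, and the lost calls are those named in the report. The cause, be it the background model or the offset added with it, was not tested. Leaving out 1 array at a time gave 26 to 27 genes called higher and 4 to 5 lower, 30 to 33 probes higher and 4 to 5 lower, and 29 to 30 other pathway genes higher and 7 to 10 lower. The difference of WNT2B, which was not called, ranged from -0.12 to 0.43, with -0.02 without pLUM replicate 2, -0.09 without pLB replicate 1 and -0.12 without pLB replicate 3. Without pLB replicate 3, WNT3 (0.97) lost its call. WNT9B gained a call without pLUM replicate 2 (-1.36) or pLB replicate 3 (-1.31), and ROR2 without pLUM replicate 1 (-1.01) or pLB replicate 1 (-1.003). Scaling on spike-in spots moved the median of all tested probes from -0.01 to 0.24, called WNT4 (1.19) and not WNT11 (-1.05), and turned no direction of a member. The mean of the tested probes also called WNT4 (1.16), and the methods' t-test with Benjamini-Hochberg adjustment lost RSPO3. Same-numbered arrays of the lines deviated with correlations of -0.27, -0.095 and -0.22, so that the numbers do not pair the samples, and with the replicate number as a block 27 genes were called higher and 5 lower, the addition being WNT9B, with 32 probes higher and 5 lower and 30 other pathway genes higher and 9 lower. Signals near background and 3 arrays a line limit what can be said of the dim genes.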
